A study of Danio rerio with 3 samples.

Results

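The exocrine and endocrine pancreas genes examined here were prss1, ela2l and cpa5, which encode digestive enzymes, the hormone gene ins, and the transcription factor genes pdx1 and ptf1a. They were the genes named by 9 probes whose gene symbol in the array's annotation was one of these, and made up 6 of the 15548 named genes on the array. Ins, cpa5 and pdx1 had 2 probes each, and prss1, ela2l and ptf1a had 1. Whole zebrafish embryos of strain AB, kept at 28 °C, had received a morpholino (MO), a synthetic antisense strand that can interfere with the splicing or translation of an RNA. The slc2a10 MO embryos received 7.5 ng of an oligomer against the splice donor of exon 2 of slc2a10, which encodes GLUT10, a facilitative sugar transporter. They were collected at 48 hours post fertilization after sorting for a recognizable Class 1 phenotype. Control embryos received 5 ng of a control MO, and the labels mention no sorting of them. Each of the 3 slc2a10 MO replicates held RNA of 10 to 15 embryos, while control RNA was combined into 1 pool that was hybridised on every array. MO dose and sorting therefore differed along with the target. The pool's own embryo-to-embryo spread is in no value given here.

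The oligomers define the groups, and both are shown 5′ to 3′ with capitals for the letters complementary to a GTAAGT splice donor. The control oligomer lacks this exact run but holds its last letters, cttac.
slc2a10 MO: caaataaagtccACTTACttggt
control MO: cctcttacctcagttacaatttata

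In the vertebrate pancreas, acinar cells make and secrete digestive enzymes, and islet cells release hormones into the blood. The homeodomain factor Pdx1 marks the endoderm that forms the pancreas and later acts in beta cells, the source of insulin. The basic helix-loop-helix factor Ptf1a is needed for acinar cells and, outside the pancreas, for inhibitory neurons of the retina and hindbrain. In whole embryos, fewer cells of a type and less RNA per cell cannot be told apart.

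Each array gave 1 log2 ratio per probe between a slc2a10 MO replicate and the control pool. Replicates 1 and 3 carried the slc2a10 MO RNA in Cy3, and replicate 2, the dye swap, carried it in Cy5. As deposited, replicate 2 correlated over all probes at -0.65 and -0.69 with replicates 1 and 3, which correlated at 0.48 with each other, and its sign was turned. If the submitters had deposited all ratios in 1 sample direction and dye effects outweighed the MO, the correlations would look alike, and the deposited values do not tell these apart. The sample titles name slc2a10 MO first for replicates 1 and 3 and the control pool first for replicate 2. Each title thus names the Cy3 sample first, but none states how the ratio was formed. The sources used here do not settle whether the ratio is Cy5 over Cy3 or the reverse. Signs are therefore relative to slc2a10, whose single probe gave 0.50, 0.42 and 0.47 on replicates 1, 2 and 3. A positive value means the side of slc2a10, and a negative value means the opposite one. The slc2a10 side was higher in slc2a10 MO embryos if the ratio is Cy3 over Cy5, and higher in the control pool if it is Cy5 over Cy3. A splice-blocking MO need not change the amount of its target's transcript, so slc2a10 does not decide between these. Brightness over background is unknown for every probe, and having only 3 arrays limits precision.

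The pancreas genes did not share a side. Trypsin gene prss1 lay far on the slc2a10 side and carboxypeptidase gene cpa5 moderately on the opposite side, while ela2l, ins, pdx1 and ptf1a did not pass the test. Thus 2 of the 6 genes were called at an adjusted p under 0.05 by limma, 1 on each side, where 19.3% of all named genes were called. By side, 11.1% of named genes were called with slc2a10 and 8.16% opposite to it. The median of the 6 mean log2 ratios was -0.036, against 0.0066 over all named genes. All calls rest on the turned sign, and nearly all on limma's pooling of spread over genes: with replicate 2 as deposited limma called 0 genes (28 at an unadjusted p under 0.05), and without moderation 2 genes, neither of them a pancreas gene. Values are means ± SD of 3 arrays (n = 3). Nothing in the labels says more about the replicates than that they are biological. The p-values combine a gene's spread between these 3 samples with the spread pooled over genes, which supplied 6.05 of 8.05 degrees of freedom.

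**Figure D1:**
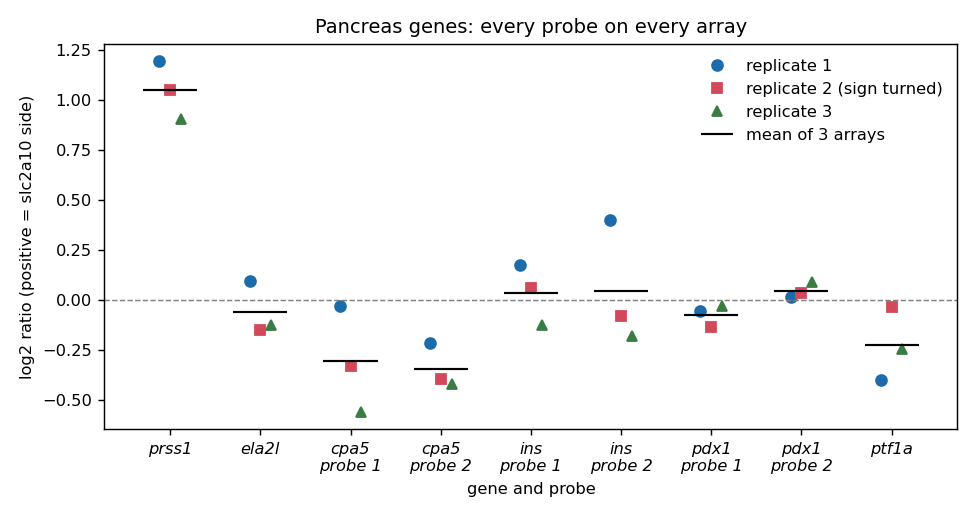
Log2 ratio (vertical axis) of every probe of the 6 pancreas genes (horizontal axis) on each of 3 arrays, marked by symbol, with the mean of 3 arrays as a bar; the sign of replicate 2 was turned and positive values lie on the slc2a10 side. The prss1 points sit between 0.91 and 1.19, above every other point, and all points of both cpa5 probes are below 0.

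Prss1 encodes a trypsin, the protease that cleaves food protein and activates the other pancreatic zymogens. Its single probe gave 1.19, 1.05 and 0.91 on replicates 1, 2 and 3. All 3 arrays lay on the slc2a10 side, and the lowest of them was above the highest array value of the other 5 genes, 0.29 for ins on replicate 1. The mean of 1.05 ± 0.14 is a 2.07-fold difference (limma adjusted p = 7.2e-05, 95% interval 0.898 to 1.197). It ranked 35 of 15548 named genes on the slc2a10 side, and 99.7% of named genes had a smaller mean size. The mean over the 2 arrays with the slc2a10 MO RNA in Cy3 was 1.05, the same to 2 decimals as the value of the Cy5 array. Leaving out 1 array in turn moved the mean between 0.98 and 1.12, and prss1 passed each time.

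Cpa5 encodes a carboxypeptidase A, which removes amino acids from the carboxyl end of peptides. Averaged over its probes it had -0.12, -0.36 and -0.49 on replicates 1, 2 and 3. Every array was on the opposite side, with replicate 1 closest to 0. The mean of -0.32 ± 0.19 is a 1.25-fold difference (limma adjusted p = 0.017, 95% interval -0.49 to -0.16). It was place 527 from the opposite end of the named genes. The first probe read -0.031, -0.33 and -0.56, and the second -0.21, -0.39 and -0.42. Both probes kept the same order of arrays, and their means of -0.31 and -0.34 differed by 0.037, against a median difference of 0.073 between the probes of 4516 genes with 2 probes. When all 43603 probes were fitted singly, where 11.7% were called, the second passed (limma adjusted p = 0.0078) and the first did not (limma adjusted p = 0.061). The call also ended without replicate 2 (-0.31, limma adjusted p = 0.074) and without replicate 3 (-0.24, limma adjusted p = 0.065).

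Ela2l, which also bears the synonym ctrc, encodes an elastase-like enzyme, a further secreted serine protease of acinar cells. It had 0.093, -0.15 and -0.12 on replicates 1, 2 and 3. Replicate 1 was on the slc2a10 side and the other arrays on the opposite side. The mean of -0.060 ± 0.13 did not pass (limma adjusted p = 0.59), and the 95% interval ran from -0.21 to 0.086. Prss1 thus stood above ela2l and cpa5 within every array. Ela2l also lay above cpa5 on each array. Their 95% intervals overlapped, but both genes were read on the same arrays, so overlap does not test their difference. Prss1 minus ela2l was 1.097, 1.198 and 1.028 on replicates 1, 2 and 3. Prss1 minus cpa5 was 1.313, 1.409 and 1.395. These differences of log ratios spread less over arrays (SD 0.086 and 0.052) than the prss1 ratio itself (SD 0.14). The difference prss1 minus ptf1a spread more (SD 0.28). Trypsins, elastases and carboxypeptidases have close paralogs. Probe sequences were not used here, so signal from a related transcript cannot be told apart.

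Ins encodes preproinsulin, the beta cell hormone precursor. Averaged over its probes it gave 0.29, -0.010 and -0.15 on replicates 1, 2 and 3. The arrays lay on both sides of 0, with replicate 1 high. Its SD of 0.22 around a mean of 0.042 was larger than that of 94.9% of named genes, whose median SD was 0.089. The mean did not pass (limma adjusted p = 0.79), with a 95% interval from -0.15 to 0.23. Without replicate 1 the mean was -0.081. The first probe read 0.17, 0.061 and -0.13, and the second 0.40, -0.082 and -0.18. Both fell in the same order over the arrays, and their means differed by 0.0098. On single arrays they lay further apart, with opposite signs on replicate 2, and their SDs were 0.15 and 0.31.

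Pdx1, the transcription factor gene of the pancreatic endoderm, had -0.018, -0.049 and 0.030 on replicates 1, 2 and 3. All 3 values, each averaged over its probes, were near 0, and only 14.3% of named genes had a smaller SD than its 0.040. The mean of -0.012 did not pass (limma adjusted p = 0.91), and the 95% interval, -0.13 to 0.11, is the narrowest of the 6 genes. Its probes disagreed in sign. Their means differed by 0.12, against a median difference of 0.073 between the probes of 4516 genes with 2 probes. The first read -0.053, -0.13 and -0.029, and the second 0.017, 0.036 and 0.090. Neither passed when fitted singly (limma adjusted p = 0.54 and 0.71).

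Ptf1a, the acinar transcription factor gene, had -0.40, -0.037 and -0.24 on replicates 1, 2 and 3. All arrays were on the opposite side, with replicate 2 close to 0. Over all named genes, 50.1% had the same sign on all 3 arrays, and of these 6 genes prss1, cpa5 and ptf1a did. The mean of -0.23 ± 0.18 did not pass (limma adjusted p = 0.066, 95% interval -0.39 to -0.059). The value moved with single arrays. Without replicate 1 the mean was -0.14 (limma adjusted p = 0.19) and without replicate 3 it was -0.22 (limma adjusted p = 0.14). Without replicate 2, the only array with slc2a10 MO RNA in Cy5, the mean was -0.32 and passed (limma adjusted p = 0.035), and with a dye term, which gives both dye orders equal weight, it was -0.18 (limma adjusted p = 0.16).

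In order of mean log2 ratio the genes were prss1, ins, pdx1, ela2l, ptf1a and cpa5. Prss1 lay clear of its neighbour ins on every array. The 95% intervals of neighbours overlapped throughout the rest of the order, from ins to cpa5. Such overlap ignores that the genes share arrays, and differences between neighbours were not tested.

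**Figure D2:**
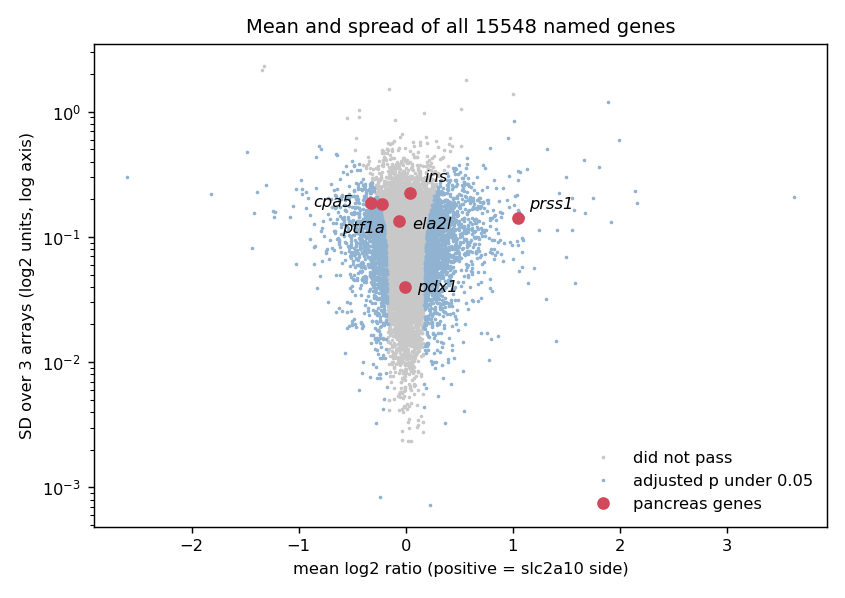
Mean log2 ratio of 3 arrays (horizontal axis, positive on the slc2a10 side) against the SD over the arrays (vertical log axis, log2 units) for 15548 named genes, with called genes in blue, the others in grey and the pancreas genes in red. Prss1 lies apart at 1.05, cpa5 is within the blue cloud on the opposite side, and ins has the largest SD of the 6 genes, 0.22.

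The genes closest to prss1 in their 3 array values, by Euclidean distance among all named genes, were ckmt2a (distance 0.092), mb (0.11) and lgals2b (0.11). Ckmt2a encodes a mitochondrial creatine kinase and mb myoglobin. On replicates 1, 2 and 3 ckmt2a had 1.21, 0.98 and 0.85, and mb had 1.22, 1.04 and 0.80. Closest to cpa5 were tmem43 (0.053), poglut2 (0.056) and srrt (0.066), with means of -0.33, -0.30 and -0.33. None of these 6 genes is in the lists of pancreas genes used here. Those lists measured 29 exocrine, 20 islet and 34 transcription factor genes of 15548 named genes. Their absence among so few neighbours therefore says little.

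A wider list of digestive enzymes and other exocrine secretory genes, which includes prss1, ela2l and cpa5, held called genes on both sides. Of 46 listed symbols, 29 genes were measured, of which 5 were called with positive and 2 with negative means. The called share was 24.1%, against 19.3% of all named genes, and the list median was 0.064. Without prss1, ela2l and cpa5, 5 of 26 were called, with a median of 0.068. Of those called genes, only cela1.6 was on the opposite side. The list held 4 called genes without replicate 2 and 4 without replicate 3. Calls over all named genes fell too, from 2996 to 1556 and 2527, respectively. Besides prss1, the slc2a10 side held spink4, encoding a Kazal-type trypsin inhibitor (0.48 ± 0.12), and cpb2, encoding a carboxypeptidase B (0.39 ± 0.04), which in mammals is a plasma enzyme made by the liver. Cpa4, encoding a carboxypeptidase A (0.19 ± 0.03), and erp27, a chaperone-related gene (0.21 ± 0.05), were also called there. Cpa4 and erp27 lost their calls without replicate 2 or 3. The elastase gene cela1.6 (-0.46 ± 0.16, 4 probes) was called opposite, with cpa5. It read -0.39, -0.35 and -0.64 on replicates 1, 2 and 3, and no array overlapped with those of prss1.

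Some other digestive enzyme genes had ratios near 0. The trypsin-like gene prss59.1 had -0.042 ± 0.07 and the chymotrypsinogen gene ctrb.1 0.089 ± 0.14, neither of which passed. The elastase gene ela2 (-0.053 ± 0.10) did not pass either, nor did cpa1 (0.10 ± 0.08), nor the bile salt lipase gene cel.1 (0.079 ± 0.09). These 5 genes are not among those the naming rule picks and were chosen after their values were seen, as genes of the main enzyme classes. They therefore do not stand for the enzyme genes as a whole. Of those that did not pass, the largest mean sizes were pla2g1b, a pancreatic phospholipase gene (-0.19 ± 0.10, limma adjusted p = 0.052), amy2a, an amylase gene (-0.18 ± 0.18), and the carboxypeptidase gene cpb1 (0.17 ± 0.04, limma adjusted p = 0.054). A ratio near 0 on a dim probe carries little information, and brightness is unknown here.

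**Figure D3:**
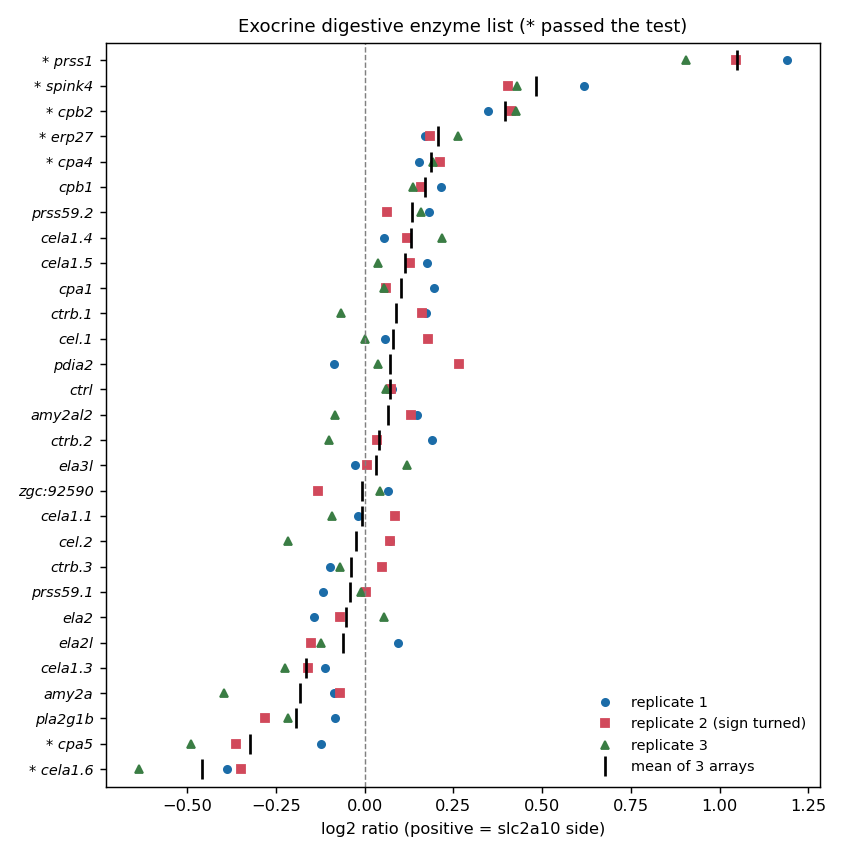
Log2 ratio (horizontal axis, positive on the slc2a10 side) of 29 measured exocrine genes, 1 per line, on 3 arrays (symbols) with the mean as a black stroke; an asterisk marks genes called by limma. Prss1 stands alone at the top, and its lowest array, 0.91, exceeds the highest array of any other gene on the list, 0.62 for spink4.

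Among islet and beta cell genes, several were called while ins was not. Of 30 listed symbols, 20 genes were measured, with 9 called on the side of slc2a10 and 1 called opposite. That share of 50% stands against 19.3% of all named genes, with 11.1% called on the slc2a10 side and 8.16% opposite. Like the other lists, this one was chosen with earlier results of these data known. Without replicate 2, 5 were called, while calls over all named genes fell from 2996 to 1556. The list median was 0.042. Many of its members also serve neurons and other endocrine cells, so a whole-embryo ratio does not assign them to islets. The secretory granule gene scg3 had 0.62 ± 0.08, with 0.68, 0.53 and 0.67 on replicates 1, 2 and 3. The granule genes chga (0.26 ± 0.20), scg2b (0.23 ± 0.06) and pcsk1nl (0.22 ± 0.07) were also called. Scg2b lost its call without replicate 2, and pcsk1nl without replicate 1 or 2. For chga replicate 1 stood at 0.49 and the others at 0.15, and without replicate 1 its mean was 0.15 (limma adjusted p = 0.11). It did not pass without replicate 2 either (limma adjusted p = 0.057).

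Of the hormone genes, gcga, encoding glucagon, had 0.20 ± 0.07 and was called, but its first probe had -0.055, and the call ended without replicate 1 or 2. The somatostatin-family genes differed in sign. Sst1.1 had 0.28 ± 0.05 and sst6.1 0.32 ± 0.03, while sst2 had -0.29, -0.63 and -0.53 on replicates 1, 2 and 3, a mean of -0.48 ± 0.17 (limma adjusted p = 0.0027). No array of sst2 overlapped with one of sst1.1. The second insulin gene insb, at 0.061, 0.057 and -0.11, had a mean of 0.0029 and did not pass, as ins did not. The hormone precursor gene pyya did not pass (-0.12 ± 0.21). Slc2a2, the glucose transporter gene of liver and beta cells, was called (0.34 ± 0.07). Its probes differed in size, with 0.13 for the first, which did not pass when fitted singly (limma adjusted p = 0.28), and 0.54 for the second.

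Pancreas transcription factor genes were called on both sides. Of 47 listed symbols, 34 genes were measured, with 5 called on the side of slc2a10 and 9 called opposite. The called share was 41.2%, against 19.3% of all named genes. The list median was -0.028. Pdx1 and ptf1a were among the 20 that did not pass. Neurod1, a basic helix-loop-helix factor of neurons and endocrine cells, had 1.18, 1.14 and 1.09 on replicates 1, 2 and 3, close to the values of prss1. Prox1a, a homeodomain factor of liver, pancreas and lymphatic endothelium (0.65 ± 0.17), and isl1a, a LIM homeodomain factor of islets and motor neurons (0.52 ± 0.13), were called on the same side. So was the paired box factor gene pax6b (0.40 ± 0.09).

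The remaining 9 called factor genes lay on the opposite side. Gata5, an endoderm and heart factor, had -0.68, -0.68 and -0.59 on replicates 1, 2 and 3, a mean of -0.65 ± 0.05. Onecut1, a liver and pancreas factor, had -0.59 ± 0.14, and meis3, a TALE homeodomain factor, -0.51 ± 0.07. Gata6 (-0.34 ± 0.20), nkx6.1 (-0.43 ± 0.08), the endocrine progenitor gene ascl1b (-0.31 ± 0.27), foxa3 (-0.29 ± 0.04) and the paralogs insm1a (-0.49 ± 0.06) and insm1b (-0.39 ± 0.21) were called there too. Ascl1b lost its call without replicate 1 or 2, and foxa3 and insm1b without replicate 2. Other endoderm factor genes had means near 0 and did not pass, among them foxa2 (0.031) and hnf4a (0.089). Nr5a2, a nuclear receptor gene of acinar cells, had 0.22 ± 0.19 and did not pass (limma adjusted p = 0.082), and bhlha15, an acinar maturation factor gene, had -0.12 ± 0.06 and did not pass either.

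**Figure D4:**
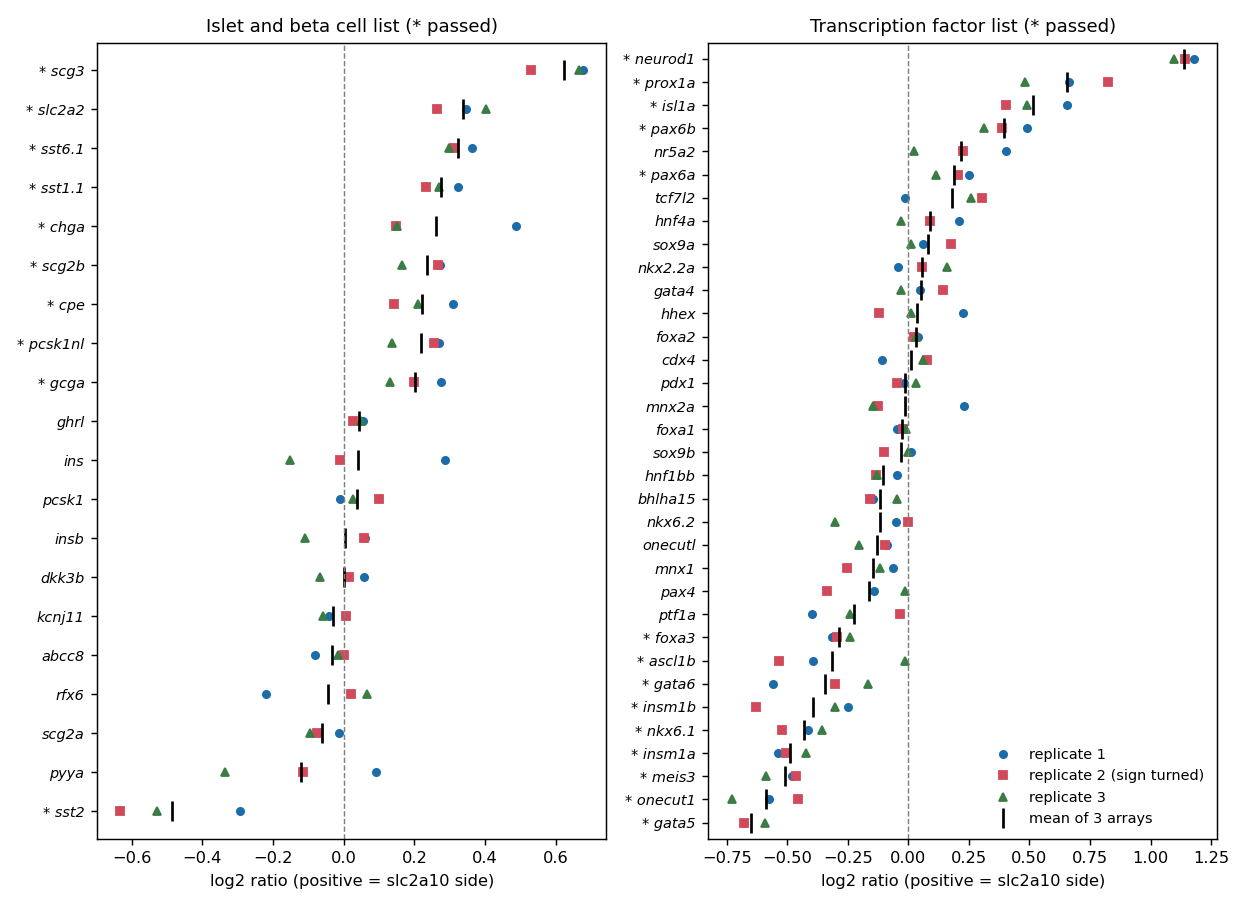
Log2 ratio (horizontal axes, positive on the slc2a10 side) of 20 islet and beta cell genes (left) and 34 pancreas transcription factor genes (right), 1 per line, on 3 arrays (symbols) with the mean as a black stroke and an asterisk for genes called by limma. Ins spans 0, with replicate 1 at 0.29 and replicate 3 at -0.15, pdx1 sits at 0, and ptf1a lies just above the called genes of the opposite side.

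Insulin and insulin-like growth factor signalling genes were called about as often as genes at large, of which 19.3% were called. Of 34 listed symbols, 24 genes were measured, with 1 called on the side of slc2a10 and 3 called opposite, 16.7% in all, with a median of -0.024. Without replicate 2, 2 were called, while calls over all named genes fell from 2996 to 1556. Igfbp1a, encoding a binding protein of insulin-like growth factors, had -0.57, -0.62 and -0.60 on replicates 1, 2 and 3. The forkhead factor gene foxo3a had 0.40 ± 0.14 and foxo1a -0.24 ± 0.07, and the kinase gene akt2 had -0.22 ± 0.08. Foxo1a lost its call without replicate 2 or 3, and akt2 without replicate 1 or 2. The insulin receptor genes insra (-0.079 ± 0.24) and insrb (0.066 ± 0.11) did not pass.

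Markers of neighbouring organs, and genes of the retina and hindbrain, where ptf1a is also active, were read beside the members. Of 23 measured liver markers, 10 had called positive and 1 called negative means (47.8%, median 0.14), and 12 did not pass. Over all named genes the called share was 19.3%. The called positive markers are other endodermal genes on the side of prss1, while endodermal genes such as cpa5, cela1.6 and foxa3 were called opposite. Fabp10a, the liver fatty acid binding protein gene, had 1.92 ± 0.13, ftcd, a histidine-degrading enzyme gene, 1.55 ± 0.21, and uox, the urate oxidase gene, 1.24 ± 0.11. Hpda, a tyrosine-degrading enzyme gene, read 1.13, 0.96 and 0.79 on replicates 1, 2 and 3, each slightly below prss1. Fgb was called on the opposite side (-0.27 ± 0.15). Of the liver markers that did not pass, hamp (-0.23 ± 0.37), fga (-0.15 ± 0.22) and gc (0.15 ± 0.02) had the largest mean sizes. Levels of these markers in either group cannot be read from ratios, and their part in the prss1 value was not tested.

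Intestine markers did not share a side. Of 19 measured, 2 were called with positive and 3 with negative means (26.3%, against 19.3% of all named genes, median -0.012). The enterocyte genes fabp2 (-0.34 ± 0.06) and apoa4b.1 (-0.35 ± 0.12) were called opposite, as cpa5 was, and fabp1b.1 (0.30 ± 0.14) on the slc2a10 side. The probes of fabp2 disagreed in sign, since its second had 0.051. Of 24 measured genes listed for the retina and hindbrain, 10 were called with positive and 2 with negative means (50%, median 0.16). Over all named genes the called share was 19.3%. The list follows these regions and is not limited to genes of cells that express ptf1a. Called on the slc2a10 side were tfap2a (0.45 ± 0.05) and tfap2b (0.73 ± 0.17), encoding AP-2 factors, and olig2 (0.42 ± 0.11). The proneural genes atoh7 (-0.66 ± 0.11) and atoh1b (-0.40 ± 0.14) were called opposite. Gad1b and gad2, encoding the enzymes that make the inhibitory transmitter GABA, were called at 0.26 ± 0.02 and 0.32 ± 0.05, gad1b not without replicate 2. Fitted singly, the first gad2 probe (0.18, limma adjusted p = 0.11) and the second gad1b probe (0.19, limma adjusted p = 0.075) did not pass. Of the 12 genes that did not pass, slc32a1 (0.21 ± 0.18), lbx1b (-0.19 ± 0.11) and ebf3a (0.17 ± 0.07) had the largest mean sizes. The transporter genes slc6a5 (0.038) and slc6a9 (-0.040) did not pass either. The negative values of ptf1a, which did not pass, thus stood beside mostly positive values of this list, and which tissue its signal came from was not tested.

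**Figure D5:**
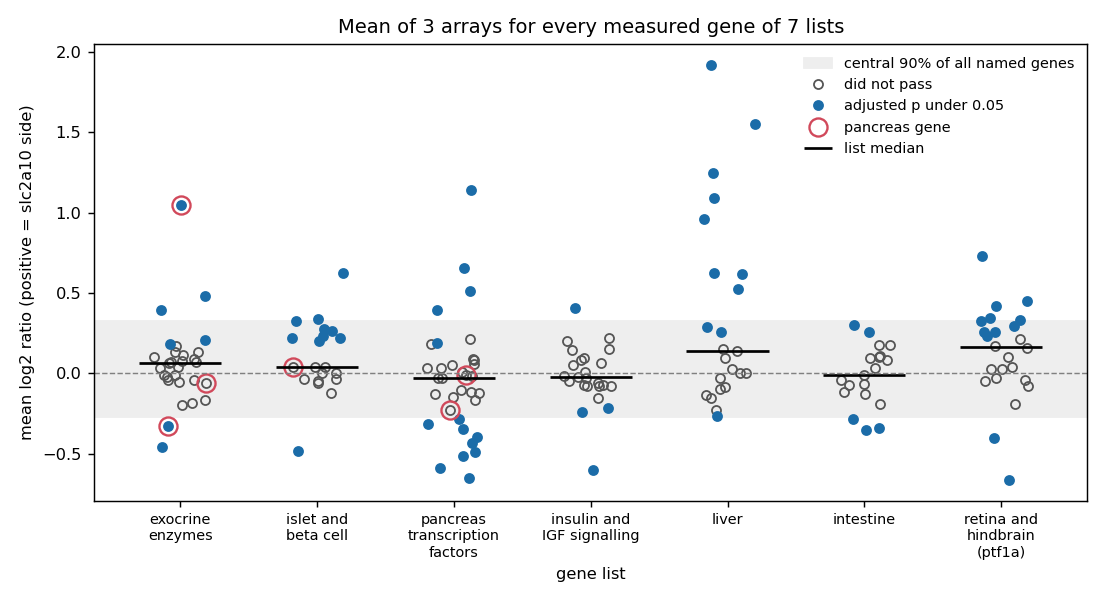
Mean log2 ratio of 3 arrays (vertical axis, positive on the slc2a10 side) of each measured gene in 7 lists (horizontal axis), with called genes filled, list medians as bars, pancreas genes ringed in red and the central 90% of all named genes shaded (-0.27 to 0.33). Prss1 and cpa5 lie outside the shaded band, and ela2l, ins, pdx1 and ptf1a lie inside it.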

How the data were processed

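The deposited values, made by the authors, were read here as log2 ratios of the 2 channels of each array, 1 per probe. The submitters' processing notes name Partek without version or role. How the arrays were scanned, background-corrected and normalized is not stated there or in the labels. The log base was inferred from the largest size, 4.85, which as a log10 ratio would exceed what 16-bit scanning allows. That scanning depth was assumed, so log10 is not excluded. If the values were natural or log10 ratios, which remains possible, log2 sizes are understated. Column medians were -0.0016, -0.0075 and -0.0045, so arrays were already centred.

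Of 43648 features, 45 control spots were left out. GEO's platform annotation named 23717 probes by 1 symbol each, none had several, and 19886 were unnamed. Symbols were updated through the RefSeq gene table of GRCz12tu for 23576 probes and changed for 21. Where several probes shared a gene, their mean was taken on each array, which left 15548 genes, and all were fitted with limma 3.58.1 in R 4.3.3 (lmFit, eBayes) as a mean against 0, with Benjamini-Hochberg adjustment at 0.05 over all genes. The fit was tested on simulated data.

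Replicate 2 was turned because it correlated below -0.3 with both other arrays and carried the swapped dyes. Members and lists were chosen with earlier results of these data known. Of each list, the text draws on at most 6 called genes with the largest mean size and the same sign on all arrays, and at most 3 that did not pass, plus the nearest genes of called members. Further list genes are named after their values were seen, to complete a gene class. No sequence of the genes was used here.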

Additional observations from a re-analysis of the deposited data

How the results depend on the processing

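Each alternative changed 1 choice. With robust eBayes, the median of a gene's probes, or arrays scaled to equal size, every pancreas gene and list count kept its direction and side of the threshold or stayed within 1.5 times. With the sign of replicate 2 as deposited, limma called 0 genes (28 at an unadjusted p under 0.05), 0 of the pancreas genes and 0 in each list. Prss1 then had 0.35, cpa5 -0.083, ela2l 0.041 and pdx1 0.020, none passing, and agr2 (0.0097), fga (0.073), tcf7l2 (-0.021), ascl1b (0.042), insm1b (0.026), cel.1 (-0.040), ctrb.1 (-0.019), insb (-0.035) and insrb (-0.058) also turned in sign. Without moderation, 2 genes were called (3262 unadjusted) and 0 in each list, and prss1 (1.05, adjusted p = 0.15 with limma's ordinary statistic) and cpa5 (-0.32, adjusted p = 0.31) did not pass. Array weights gave 5211 genes, 12 exocrine, 7 insulin signalling and 8 intestine genes. A dye term gave 2221 genes over the whole table, against 2996 in the main fit, with 6 islet and 2 insulin signalling genes. Fitted singly, the first cpa5 probe had -0.31 and did not pass, the first gcga probe had -0.055, the second pdx1 probe 0.048 and the second fabp2 probe 0.051. Leaving out 1 replicate gave 1556 (without replicate 2) to 3211 called genes, 1 (without replicate 3) to 2 pancreas genes, 4 (without replicate 2 or 3) to 9 exocrine, 5 (without replicate 2) to 9 islet and 2 (without replicate 2) to 4 insulin signalling genes. It gave -0.43 to -0.24 for cpa5, -0.081 to 0.14 for ins, -0.034 to 0.0060 for pdx1, -0.32 to -0.14 for ptf1a and -0.099 to 0.043 (without replicate 1) for rfx6, -0.026 to 0.059 for insb and -0.17 to 0.057 (without replicate 3) for insra. Among 57 further called genes in the text or its naming rule, calls ended for 7 without replicate 1, 16 without replicate 2, 7 without replicate 3 and 8 with a dye term. The cause of these changes was not tested. With 2 arrays left, 1 degree of freedom among samples remains. No paired analysis was possible because the single control pool carries no replicate numbers. Signal over background is unknown, so dim probes could not be set apart.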
